A study of Homo sapiens with 6 samples.

Results

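Glutathione S-transferases were followed in LNCaP, a human prostate cancer cell line that responds to androgens, after exposure to urolithin A, a compound that gut bacteria form from ellagic acid of the diet. The members are 10 genes of 6 classes, chosen with earlier results of these data known. They are GSTA1, GSTA2 and GSTA4 (alpha), GSTM2 and GSTM3 (mu), GSTO1 and GSTO2 (omega), GSTP1 (pi), GSTZ1 (zeta) and GSTK1 (kappa). Each had at least 1 probe set that the platform annotation lists with that symbol alone, 25 probe sets in all, among 18239 genes on 45253 such probe sets. RNA came from 3 samples of cells kept for 24 h with 40 µM urolithin A and from 3 control samples, each hybridised to its own Affymetrix Human Genome U219 array. The sample titles name the controls untreated, the treatment protocol names saline, and the solvent of urolithin A is not given. All cells were this one line, in F12 medium containing fetal bovine serum. Nothing in the labels ties the samples to separate cultures, so p-values cover the spread between arrays, which may be technical.

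These enzymes join glutathione, a tripeptide with a reactive thiol, to electrophiles such as drugs, quinones and the aldehydes of oxidised lipids, and some also reduce peroxides or isomerise substrates. The conjugates leave the cell through ABC transporters and are trimmed outside it on the way to mercapturates. In the prostate the family is best known for GSTP1, whose CpG-rich promoter is methylated and silent in most prostate carcinomas, LNCaP included. Several family members have promoters with an antioxidant response element, the site through which the transcription factor NRF2 acts.

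In the deposited values each probe set is on the log2 scale with its control median set to 0. How abundant a transcript was cannot be read from such values, and the line's identity could not be checked by the presence of its markers. Of 6 measured luminal and LNCaP markers, FOLH1 was higher, the androgen-induced KLK3 was lower and 4 did not pass. Of all genes, 10.2% were called in either direction. None of 12 markers of fibroblasts, endothelium or leukocytes passed in limma's test. Among them 1, the B-cell gene MS4A1, had an unadjusted p under 0.05, as had 4393 of all 18239 genes. Yet some arrays stood apart for an immune transcript. The HLA-DRA probe set with the widest spread read 0.21, 2.97 and 5.65 in urolithin A replicates 1, 2 and 3, against 2.33, 0.00 and -0.07 in control replicates 1, 2 and 3. A further HLA-DRA probe set read -0.14, 0.69 and 3.74 in urolithin A replicates 1, 2 and 3, against 0.71, -0.06 and 0.00 in control replicates 1, 2 and 3. The remaining one with that symbol alone, at -0.12, -0.15 and -0.13 in urolithin A replicates 1, 2 and 3, against -0.02, 0.15 and 0.00 in control replicates 1, 2 and 3, set none of these arrays apart. The mean of the 4 leukocyte markers was -0.04, 0.37 and 0.13 in urolithin A replicates 1, 2 and 3, against 0.00, -0.05 and 0.06 in the controls. The members were therefore also compared without urolithin A replicate 3 and control replicate 1, and between urolithin A replicate 1 and control replicates 2 and 3. Both comparisons were chosen after the data were seen, from the HLA-DRA probe set with the widest spread.

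After urolithin A, 3 of the 10 transferases were higher (GSTA4, GSTZ1 and GSTO2), 1 was lower (GSTA2) and 6 did not pass. The test was limma's moderated test with Benjamini-Hochberg adjustment over all 18239 genes, at an adjusted p under 0.05. By the same test 10.2% of all genes were called, 4.85% higher and 5.31% lower. Because the members were chosen with earlier results known, their count beside these shares is a description only. Of the 12 measured genes among the other transferases and related membrane enzymes, 0 were higher and 0 lower. The median log2 change was 0.02 over the 10 members and 0.01 over all genes, with members changed in both directions. The groups did not overlap for these 4 members, which is the case for 29.3% of all genes. In RNA from bulk cells, less RNA per cell and fewer cells of a kind cannot be told apart.

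**Figure D1:**
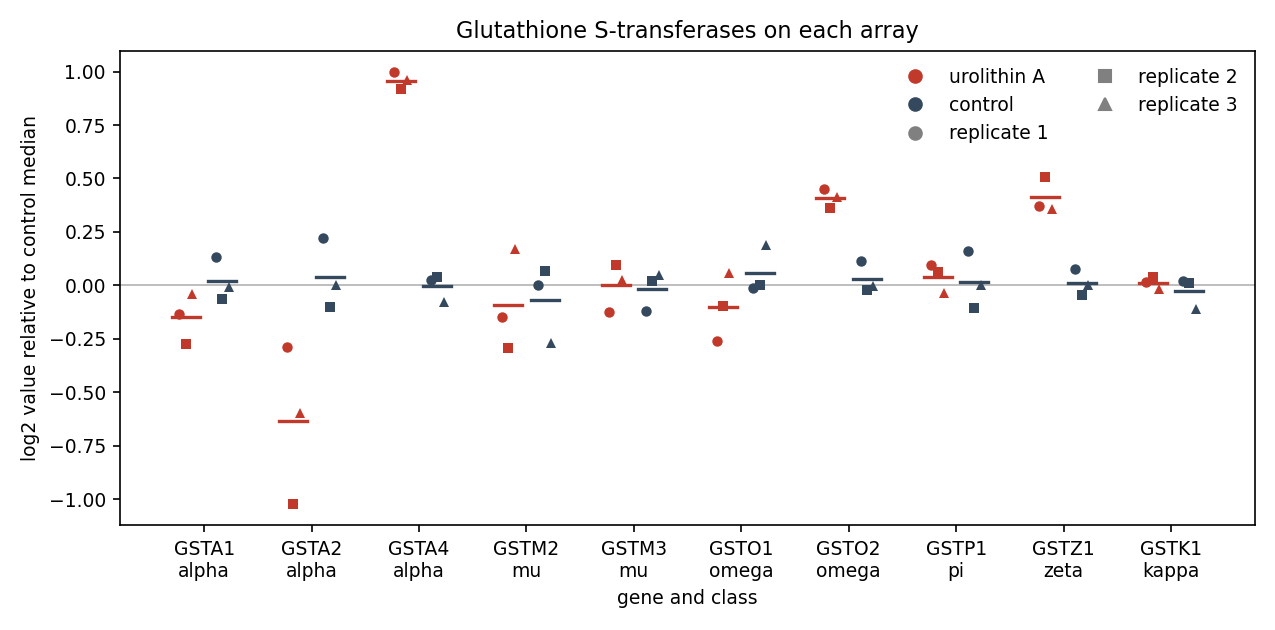
Log2 value relative to the control median (vertical axis) of each glutathione S-transferase on each array, by gene and class; symbols mark replicates, and bars are group means of 3 arrays. The urolithin A arrays of GSTA4 lie between 0.92 and 1.00 and those of GSTO2 and GSTZ1 between 0.36 and 0.51, above all controls of the same gene, while GSTA2 spreads from -1.02 to -0.29.

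The alpha class held both the rise and the fall of greatest size. GSTA4 codes for the transferase that is most active on 4-hydroxynonenal and related aldehydes of lipid peroxidation. It had values of 1.00, 0.92 and 0.96 in urolithin A replicates 1, 2 and 3, against 0.03, 0.04 and -0.08 in control replicates 1, 2 and 3. The 3 urolithin A arrays lay close together and far above every control. This is a log2 change of 0.96 (SE 0.07, 95% interval 0.81 to 1.11, adjusted p = 0.000261), or 1.95-fold. By p-value GSTA4 ranked 18 among 18239 genes, and 21 of the 885 genes that were higher had a larger change. All 4 of its probe sets passed on their own, with log2 changes between 0.91 and 1.02. Its log2 change stayed between 0.93 and 0.99 when any single array was left out. It was 1.02 between urolithin A replicate 1 and control replicates 2 and 3, where the call ended (adjusted p = 0.0567).

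GSTA2 and GSTA1 are close copies that detoxify electrophiles in liver and gut, reduce lipid hydroperoxides and isomerise steroid intermediates. GSTA2 had values of -0.29, -1.02 and -0.60 in urolithin A replicates 1, 2 and 3, against 0.22, -0.10 and 0.00 in control replicates 1, 2 and 3. All urolithin A arrays were below the controls, but they were spread over more than the distance from the highest of them to the nearest control. The log2 change was -0.68 (SE 0.17, 95% interval -1.06 to -0.29, adjusted p = 0.0397), or 1.6-fold lower. Among the 969 genes that were lower, 197 fell further. The call rests on a single probe set, of the kind whose name marks probes that can bind other transcripts. In limma's fit over all probe sets, its adjusted p lay at the threshold (0.05 when rounded). Leaving out urolithin A replicate 1 kept the call, and leaving out any other array ended it (highest adjusted p = 0.127). Between urolithin A replicate 1 and control replicates 2 and 3 the log2 change was -0.24 (adjusted p = 0.382), and without urolithin A replicate 3 and control replicate 1 it was -0.61 (adjusted p = 0.193).

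GSTA1 had values of -0.14, -0.27 and -0.04 in urolithin A replicates 1, 2 and 3, against 0.13, -0.06 and -0.01 in control replicates 1, 2 and 3. The groups overlapped, and the test was not passed at a log2 change of -0.17 (95% interval -0.36 to 0.03, adjusted p = 0.275). Its 2 probe sets had log2 changes of -0.26 and -0.07. The probe set at -0.26 is of the same cross-binding kind, and like that of GSTA2 it was lowest in urolithin A replicate 2, at -0.50. How far the GSTA1 and GSTA2 probe sets report each other's transcript was not tested.

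The 250 bases ahead of the transcription start are shown for GSTA1 and GSTA2 to make their likeness visible, from RefSeq on GRCh38.p14 (chr6:52803817-52804066 and chr6:52763476-52763725, both on the minus strand). Capitals mark the 7 positions at which they differ, set base against base without gaps, and 243 of 250 bases (97.2%) are the same.
GSTA1: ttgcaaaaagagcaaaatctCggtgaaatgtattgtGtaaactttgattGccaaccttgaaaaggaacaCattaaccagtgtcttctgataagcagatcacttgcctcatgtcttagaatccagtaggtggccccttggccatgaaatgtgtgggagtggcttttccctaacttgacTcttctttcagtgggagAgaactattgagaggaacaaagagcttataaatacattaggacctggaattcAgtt
GSTA2: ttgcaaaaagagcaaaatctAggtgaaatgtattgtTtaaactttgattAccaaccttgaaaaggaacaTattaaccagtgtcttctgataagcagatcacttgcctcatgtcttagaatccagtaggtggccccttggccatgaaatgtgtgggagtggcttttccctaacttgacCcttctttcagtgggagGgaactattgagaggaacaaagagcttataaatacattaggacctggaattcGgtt

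GSTA4 lies on chromosome 6 in the same run of genes as GSTA1 and GSTA2, with 7 annotated genes and pseudogenes between GSTA1 and GSTA4. Its 250 bases (chr6:52995285-52995534, minus strand) are shown because it had the largest change of the family. Capitals mark the only match in it to TGACNNNGC, the core of the antioxidant response element, searched on both strands.
GSTA4: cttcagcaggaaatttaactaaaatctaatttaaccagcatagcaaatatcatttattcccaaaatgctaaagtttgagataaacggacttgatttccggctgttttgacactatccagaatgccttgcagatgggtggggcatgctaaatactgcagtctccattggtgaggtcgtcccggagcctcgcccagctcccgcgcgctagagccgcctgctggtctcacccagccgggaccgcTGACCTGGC
The match covers the last 9 bases ahead of the start. Such a match was present in 10.9% of all RefSeq windows, and also in those of GSTO1 and GSTP1, which did not pass. Whether the site in GSTA4 is bound was not tested.

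The responses within the alpha class were also set against each other array by array. GSTA4 minus GSTA2 was 1.29, 1.94 and 1.56 in urolithin A replicates 1, 2 and 3, against -0.20, 0.14 and -0.08 in control replicates 1, 2 and 3, a difference of 1.64 between the group means. GSTA4 minus GSTA1 differed by 1.13 between the groups in the same way. GSTA2 minus GSTA1 was -0.15, -0.75 and -0.56 in urolithin A replicates 1, 2 and 3, against 0.09, -0.04 and 0.01 in the controls, a difference of -0.51. In each of these 3 pairs the groups did not overlap, and the exact two-sided permutation test gave p = 0.1, the smallest that 3 against 3 arrays allow (adjusted p = 0.125 over the 5 pairs compared within classes).

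In the omega class GSTO2 was higher, and its neighbour GSTO1 on chromosome 10 did not pass. Omega enzymes carry a cysteine in the active site and act as reductases of dehydroascorbate and of methylated arsenic. GSTO2 had values of 0.45, 0.36 and 0.41 in urolithin A replicates 1, 2 and 3, against 0.11, -0.02 and -0.01 in control replicates 1, 2 and 3. All urolithin A arrays were above the controls. The log2 change was 0.38 (SE 0.07, 95% interval 0.23 to 0.53, adjusted p = 0.0107), or 1.3-fold. Its 5 probe sets disagreed: 2 passed on their own at log2 changes of 0.55 and 0.65, and the others had log2 changes of 0.49, 0.19 and 0.01. With the probe set of smallest spread in place of their mean, the log2 change of GSTO2 was 0.01 (adjusted p = 0.939). Its call held without any single array. It ended without urolithin A replicate 3 and control replicate 1 (log2 change 0.42, adjusted p = 0.0509) and between urolithin A replicate 1 and control replicates 2 and 3 (log2 change 0.46, adjusted p = 0.133).

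GSTO1 had values of -0.26, -0.10 and 0.06 in urolithin A replicates 1, 2 and 3, against -0.01, 0.00 and 0.19 in control replicates 1, 2 and 3. The groups overlapped, and the test was not passed at a log2 change of -0.16 on 1 probe set (95% interval -0.38 to 0.06, adjusted p = 0.377). GSTO2 minus GSTO1 was 0.71, 0.46 and 0.35 in urolithin A replicates 1, 2 and 3, against 0.12, -0.02 and -0.19 in control replicates 1, 2 and 3. The difference of 0.54 between the group means had the smallest exact permutation p available (p = 0.1, adjusted p = 0.125).

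The upstream 250 bases of both omega genes follow, because the genes are adjacent apart from a microRNA gene and differ in the antioxidant response element core. They lie on the plus strand at chr10:104254642-104254891 (GSTO1) and chr10:104268934-104269183 (GSTO2), with matches to TGACNNNGC in capitals.
GSTO1: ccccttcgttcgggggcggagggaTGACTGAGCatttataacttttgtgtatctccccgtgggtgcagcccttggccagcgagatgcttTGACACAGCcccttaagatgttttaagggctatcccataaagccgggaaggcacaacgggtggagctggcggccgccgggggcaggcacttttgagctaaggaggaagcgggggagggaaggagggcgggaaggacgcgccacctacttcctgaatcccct
GSTO2: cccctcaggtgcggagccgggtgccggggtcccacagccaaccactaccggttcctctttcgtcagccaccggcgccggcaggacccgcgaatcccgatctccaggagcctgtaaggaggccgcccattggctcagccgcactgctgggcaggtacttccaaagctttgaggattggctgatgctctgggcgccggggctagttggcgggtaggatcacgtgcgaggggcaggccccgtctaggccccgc
GSTO1 has 2 matches in this window. The GSTO2 window has none, nor has the window of a further GSTO2 start in the RefSeq table.

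GSTZ1, the zeta enzyme, isomerises maleylacetoacetate in the breakdown of tyrosine and converts dichloroacetate. It had values of 0.37, 0.51 and 0.36 in urolithin A replicates 1, 2 and 3, against 0.08, -0.04 and 0.00 in control replicates 1, 2 and 3. All urolithin A arrays were well above the controls. The log2 change was 0.40 (SE 0.07, 95% interval 0.24 to 0.56, adjusted p = 0.011), or 1.32-fold. Its 3 probe sets had log2 changes of 0.52, 0.46 and 0.23, and the first 2 of these passed on their own. The call held without any single array and without urolithin A replicate 3 and control replicate 1 (log2 change 0.46, adjusted p = 0.0467). It ended in an unmoderated fit (adjusted p = 0.0614) and between urolithin A replicate 1 and control replicates 2 and 3 (log2 change 0.39, adjusted p = 0.184).

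GSTP1, the pi enzyme, did not pass. It had values of 0.09, 0.06 and -0.03 in urolithin A replicates 1, 2 and 3, against 0.16, -0.11 and 0.00 in control replicates 1, 2 and 3. The urolithin A arrays fell inside the control range. The log2 change was 0.02, with a 95% interval of -0.17 to 0.21 (adjusted p = 0.912), and its 2 probe sets had log2 changes of -0.03 and 0.07. Because levels were removed, these values do not say whether GSTP1 was expressed in either group. Its 250 upstream bases (chr11:67583562-67583811, plus strand) are shown because they hold both the CpG sites for which the gene is known and an antioxidant response element core, in capitals.
GSTP1: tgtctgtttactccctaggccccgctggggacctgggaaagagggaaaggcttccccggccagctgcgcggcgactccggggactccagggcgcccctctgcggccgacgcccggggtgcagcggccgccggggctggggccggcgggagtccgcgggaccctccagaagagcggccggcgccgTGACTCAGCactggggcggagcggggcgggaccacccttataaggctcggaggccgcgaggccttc
This window has 28 CpG sites, more than in 84.1% of the 35116 RefSeq promoter windows of the same length. The GSTZ1 window also has 28, and the window of GSTO2 shown above has 20. There are 15 in that of GSTK1, 14 each in those of GSTO1 and GSTM2, 11 in that of GSTA4 and 1 each in those of GSTA1, GSTA2 and GSTM3.

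The mu enzymes, which conjugate epoxides and quinones, did not pass either. GSTM2 had values of -0.15, -0.29 and 0.17 in urolithin A replicates 1, 2 and 3, against 0.00, 0.07 and -0.27 in control replicates 1, 2 and 3. Its arrays were scattered in both groups, and the log2 change of -0.02 had a 95% interval of -0.32 to 0.28 (adjusted p = 0.945). GSTM3 had values of -0.12, 0.10 and 0.03 in urolithin A replicates 1, 2 and 3, against -0.12, 0.02 and 0.05 in control replicates 1, 2 and 3. Its groups overlapped, with a log2 change of 0.02 (95% interval -0.17 to 0.20, adjusted p = 0.937), and its 3 probe sets lay between -0.08 and 0.07. GSTM3 minus GSTM2 differed by 0.04 between the group means (exact permutation p = 0.8, adjusted p = 0.8). GSTK1, the kappa enzyme of mitochondria and peroxisomes, had values of 0.01, 0.04 and -0.02 in urolithin A replicates 1, 2 and 3, against 0.02, 0.01 and -0.11 in control replicates 1, 2 and 3. These groups overlapped too, at a log2 change of 0.04 (95% interval -0.11 to 0.19, adjusted p = 0.8). Its 3 probe sets had log2 changes of 0.16, 0.12 and -0.16, none of which passed.

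**Figure D2:**
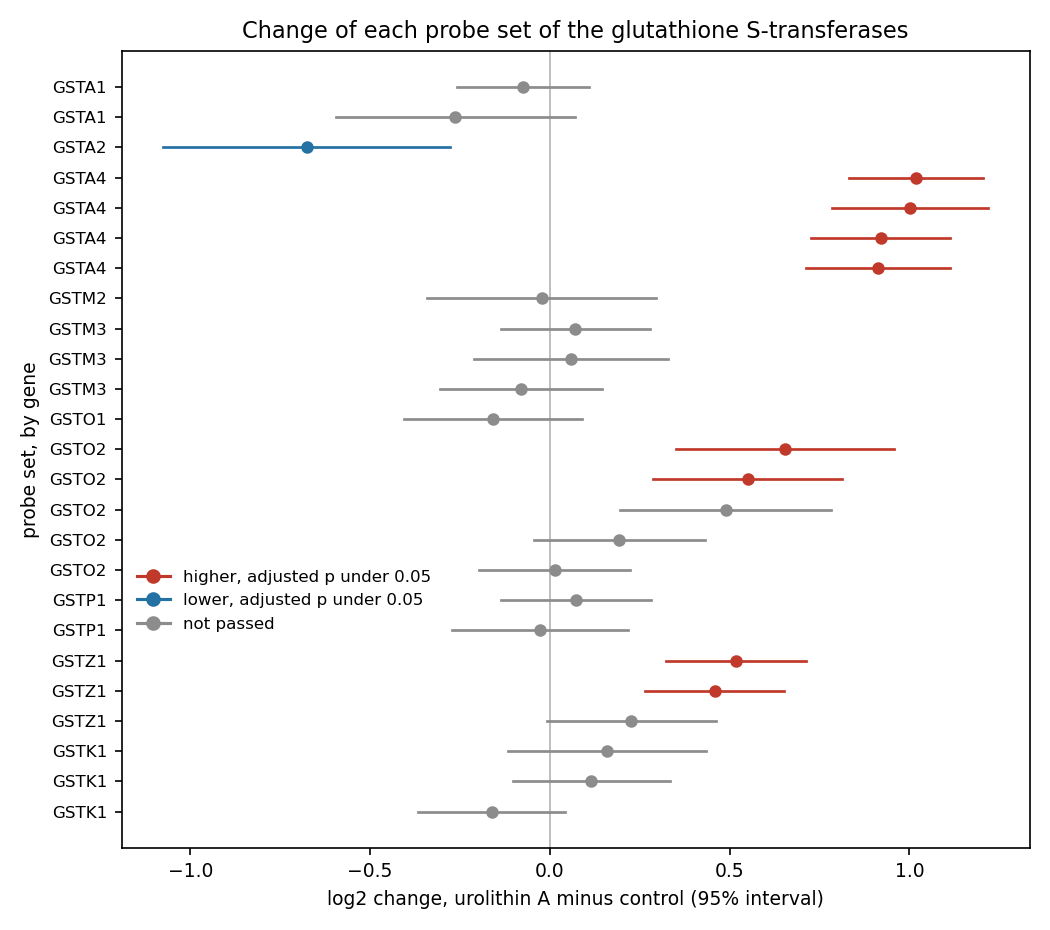
Log2 change, urolithin A minus control, of the 25 probe sets of the 10 genes (points) with 95% intervals from limma (lines), red for those that passed higher, blue for those that passed lower and grey for the others. The 4 GSTA4 probe sets lie together between 0.91 and 1.02, whereas the 5 of GSTO2 run from 0.01 to 0.65.

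Over all 25 probe sets of the family, 8 were higher, 1 was lower and 16 did not pass, where 8.37% of all 49386 probe sets were called, 3.99% higher and 4.38% lower. The 8 were the 4 of GSTA4, 2 of GSTO2 and 2 of GSTZ1. The 1 that was lower is the only probe set of GSTA2, so it adds nothing to the call of that gene. Probe sets of one gene share transcripts and are not independent of each other.

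The cores of 3 response elements were searched in the upstream windows of all 10 genes, on both strands. TGACNNNGC was found in GSTA4, GSTO1 and GSTP1, and in 10.9% of all RefSeq windows. Of these genes, only GSTA4 passed in the test of expression. GCGTG, the core bound by the aryl hydrocarbon receptor, was found in GSTM3, GSTZ1 and the further window of GSTO2, and in 32.2% of all windows. AGAACA, a hexamer of androgen response elements, was found in none of the member windows and in 12.4% of all windows. No 2 of these matches overlapped within a window.

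The genes most like GSTA4 across the 6 arrays were found by the root mean square difference of their values. The nearest was UGT2B15, which codes for a glucuronidation enzyme that inactivates androgens, at 0.0506 log2 units (Pearson r = 0.998 over 6 arrays that form 2 groups, as a description). It had values of 0.97, 0.86 and 0.90 in urolithin A replicates 1, 2 and 3, against 0.00, 0.06 and -0.16 in control replicates 1, 2 and 3. TMEM183A and TMEM38B, a membrane protein gene and the gene of an intracellular cation channel, followed at 0.0684 and 0.0734 log2 units.

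No other gene of the transferase family or of the related membrane enzymes passed. Of 15 entries in that list, 12 had a probe set of their own, with 0 higher and 0 lower in limma's test. Of all genes, 10.2% were called in either direction. The median log2 change of the 12 was 0.00. Where 4393 of all 18239 genes had an unadjusted p under 0.05 in the same fit, so did 3 of the 12. These were the microsomal MGST1 at a log2 change of 0.20 (adjusted p = 0.0881), the alpha gene GSTA3 at -0.21 (adjusted p = 0.146) and the theta gene GSTT1 at 0.27 (adjusted p = 0.162, named after its value was seen). Probe sets shared between symbols stayed outside the gene fit. The one listed for GSTT2 and GSTT2B had a log2 change of 0.32 (adjusted p = 0.0804 over all probe sets), and the one listed for GSTM1 and GSTM4 had -0.13.

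Genes that make and recycle glutathione moved in both directions. Of 12 measured, 1 was higher, 3 were lower and 8 did not pass, where 4.85% of all genes were higher and 5.31% lower; the list's median log2 change was -0.06. GCLM, the modifier subunit of the ligase that starts glutathione synthesis, had values of 0.53, 0.51 and 0.52 in urolithin A replicates 1, 2 and 3, against 0.00, 0.09 and -0.02 in control replicates 1, 2 and 3 (log2 change 0.50, SE 0.06, adjusted p = 0.00252). The catalytic subunit gene GCLC, with a log2 change of 0.08 (95% interval -0.09 to 0.25), did not pass and was named after its value was seen. GSR, the reductase that restores glutathione from its disulfide, had values of -0.38, -0.32 and -0.41 in urolithin A replicates 1, 2 and 3, against 0.00, -0.03 and 0.03 in control replicates 1, 2 and 3 (log2 change -0.37, SE 0.06, adjusted p = 0.0088). In both genes the groups were tight and apart. With the probe set of smallest spread in place of the mean, the log2 change of GSR was -0.17 (adjusted p = 0.204) and that of GCLM was 0.30 (adjusted p = 0.0367). GGCT and CHAC2, which break down gamma-glutamyl peptides and glutathione, fell by 0.31 and 0.39 on the log2 scale (adjusted p = 0.0191 and adjusted p = 0.0493). Leaving out single arrays ended the call of GGCT in 4 of 6 cases and that of CHAC2 in 5 of 6, at adjusted p up to 0.0646 and 0.151. CBS, which feeds cysteine synthesis, and the glutathione synthetase gene GSS did not pass, at log2 changes of 0.20 and -0.10.

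Among 11 measured peroxidases, glutaredoxins and PRDX6, none was higher, 1 was lower and 10 did not pass, where 5.31% of all genes were lower; the list's median log2 change was 0.00. The exception was GLRX2, a glutaredoxin of mitochondria and nucleus. It had values of -0.88, -0.82 and -1.16 in urolithin A replicates 1, 2 and 3, against 0.00, 0.04 and -0.02 in control replicates 1, 2 and 3. The fall was 1.95-fold (log2 change -0.96, SE 0.09, adjusted p = 0.000795) on 1 probe set, and it held without any single array. GLRX3 and GLRX did not pass, at log2 changes of -0.18 and -0.19. Of 5 other enzymes that use glutathione, 1 was higher and 4 did not pass, where 4.85% of all genes were higher. The 1 was ADH5, which oxidises the formaldehyde adduct of glutathione, at a log2 change of 0.32 (adjusted p = 0.0137). The list's median log2 change was 0.12. The probe set of smallest spread gave ADH5 a log2 change of 0.51 (adjusted p = 0.00176), and without cross-binding probe sets its log2 change was 0.40, larger than reported, and no longer passed (adjusted p = 0.101). The glyoxalase gene GLO1 and the esterase gene ESD did not pass, at log2 changes of -0.29 and 0.12.

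In the list of conjugate export and mercapturate formation, 14 of 17 entries were measured, of which 1 was higher, 2 were lower and 11 did not pass, where 10.2% of all genes were called in either direction; the list's median log2 change was 0.07. ABCC4, an exporter of organic anions and cyclic nucleotides, had values of -1.49, -1.14 and -1.12 in urolithin A replicates 1, 2 and 3, against -0.09, -0.03 and 0.19 in control replicates 1, 2 and 3. All 3 urolithin A arrays were far below the controls, a fall of 2.42-fold (log2 change -1.27, SE 0.12, adjusted p = 0.000709). Its probe set of smallest spread had a log2 change of -0.76 (adjusted p = 0.00224). ABCC1, the main exporter of glutathione conjugates, was 1.27-fold lower (log2 change -0.34, adjusted p = 0.0202), a call lost in 5 of 6 fits that left out an array, at adjusted p up to 0.0732. The dipeptidase gene DPEP3 was higher at a log2 change of 0.27 (adjusted p = 0.0488), a call lost in all 6 such fits. The exporter genes ABCG2 and ABCC5 did not pass, at log2 changes of 0.27 and 0.19.

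Of 10 measured genes of NRF2, its partners and indicator targets, 2 were higher and 8 did not pass, where 4.85% of all genes were higher and 10.2% were called in either direction; the list's median log2 change was 0.09. NQO1, a quinone reductase, had values of 0.74, 0.73 and 0.67 in urolithin A replicates 1, 2 and 3, against 0.08, 0.00 and -0.28 in control replicates 1, 2 and 3 (log2 change 0.78, adjusted p = 0.00219). HMOX1, the heme oxygenase gene, had a log2 change of 0.74 (adjusted p = 0.00616). NFE2L1, a relative of NRF2, and the sulfiredoxin gene SRXN1 did not pass, at log2 changes of 0.25 and 0.22. NFE2L2, the gene of NRF2 itself, had a log2 change of -0.17 (adjusted p = 0.261) and was named after its value was seen. Over these 6 lists, 5 of 64 measured genes were higher and 6 lower (17.2%, against 10.2% of all genes tested). The lists were chosen with earlier results of these data known, so these shares are a description only. The median log2 change was 0.04 over these 64 genes and 0.01 over all genes. Without urolithin A replicate 3 and control replicate 1, GCLM, NQO1 and HMOX1 were higher and GLRX2 and ABCC4 lower. Between urolithin A replicate 1 and control replicates 2 and 3, ABCC4 alone passed (log2 change -1.57, adjusted p = 0.0367).

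**Figure D3:**
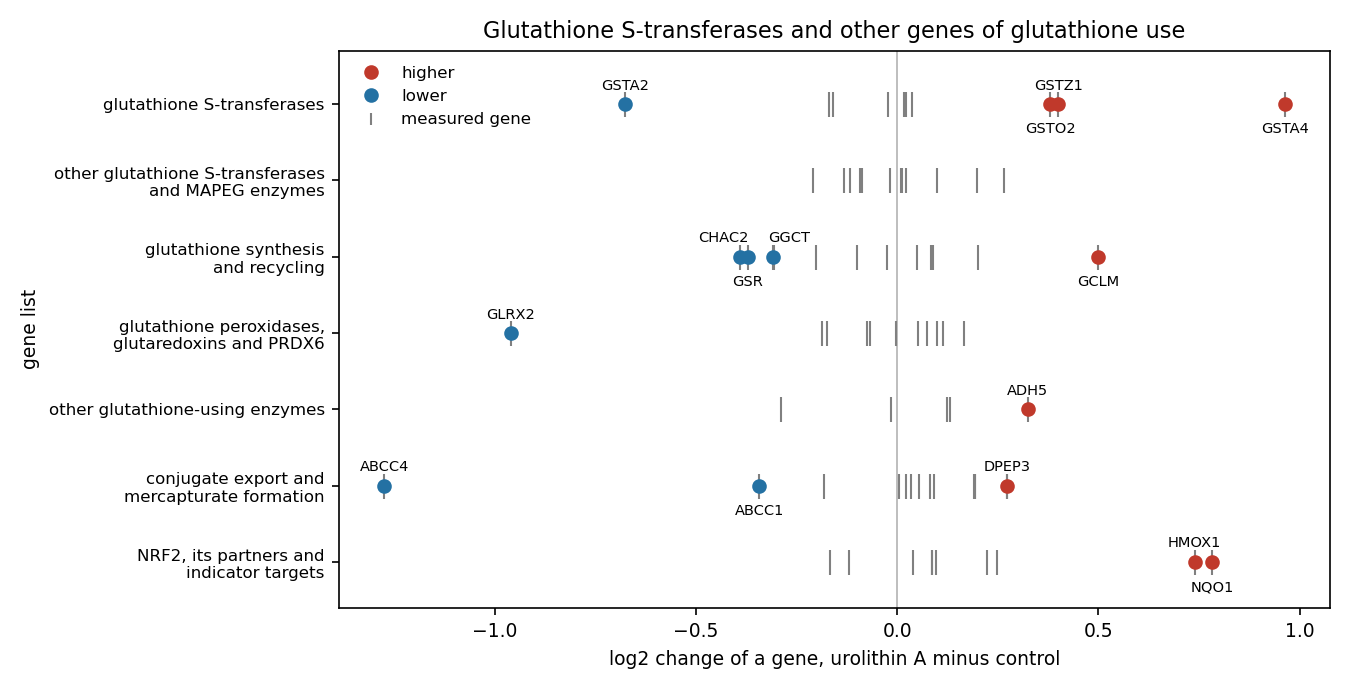
Log2 change of each gene, urolithin A minus control (horizontal axis), for the 10 glutathione S-transferases and for 6 lists of other glutathione genes (rows); red and blue points are genes that passed higher and lower, and grey ticks are all measured genes. GSTA4 has the largest rise and ABCC4 the deepest fall of all genes drawn, and no gene of the other transferases and membrane enzymes passed.

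The changes of the members were compared across 19 alternative settings. GSTA4 passed in 18 of them, with log2 changes from 0.93 to 1.02. GSTZ1 passed in 15, GSTO2 in 14, and GSTA2 in 7 of the 18 in which it could be measured. The other 6 members passed in none of the settings that gave them a value.

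**Figure D4:**
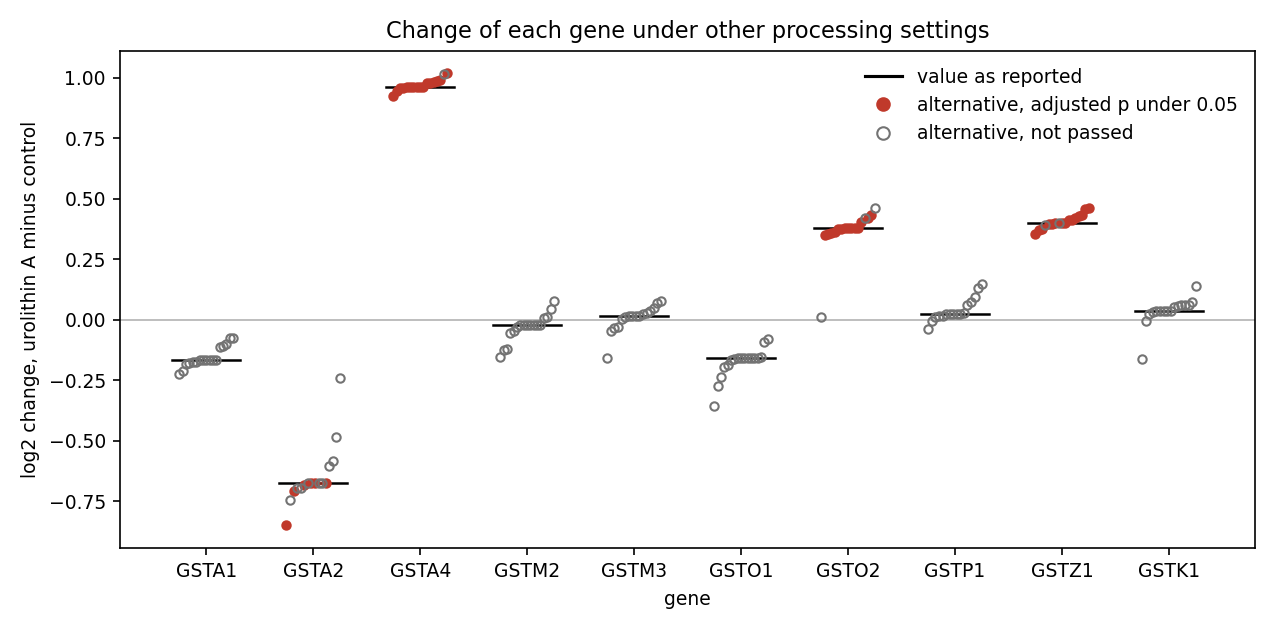
Log2 change, urolithin A minus control (vertical axis), of each glutathione S-transferase as reported (black line) and under the alternatives that change the values or the fit (points; filled where the adjusted p was under 0.05). GSTA4 stays between 0.93 and 1.02, GSTA2 runs from -0.85 to -0.24, and a single setting brings GSTO2 to 0.01.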

How the data were processed

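The authors deposited log2 values for 49386 probe sets on each of 6 arrays, and RMA is named in the submitters' processing notes. The median of the 3 control arrays is exactly 0 in every probe set, so levels had been subtracted. Precision is limited by having 6 arrays. The base of the logarithm was taken as 2, the scale of RMA. Genome build and scan batches are not given in the sources used here.

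Probe sets were named through the platform annotation, and those with 1 symbol were averaged per gene on each array (18239 genes). A two-sided test of treatment, with no other term, came from eBayes on lmFit (limma 3.58.1, R 4.3.3), with Benjamini-Hochberg adjustment over all genes and a threshold of 0.05, and every probe set was also fitted alone. Intervals are 95% intervals of that fit. Pairs within a class were compared by an exact permutation test over the 6 arrays. Promoter sequences are the 250 bases before the start from RefSeq (GRCh38.p14), which held all 10 members.

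The members and gene lists were chosen with earlier results of these data known. Named were all members, from each list every gene that passed and up to 2 others with the smallest p, and the 3 genes most like the member with the largest change. Alternatives were a replicate block, other summaries and filters of probe sets, centring, other variance priors, array weights, stricter thresholds and each array left out, and, added later, fits without arrays with raised HLA-DRA.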

Additional observations from a re-analysis of the deposited data

How the results depend on the processing

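Of the 10 transferases, 3 were higher in every fit that left out an array, and the number lower ranged from 0 to 1. At an adjusted p under 0.01, and with a fold minimum of 1.49 added to the threshold of 0.05, 1 was higher. Without all 3 raised HLA-DRA arrays 0 were higher, a fit with fewer arrays in which the lone array is assumed to vary like the controls. GSTA2 was lost, leaving 0 lower, with the median of probe sets (adjusted p = 0.0519), a trended and robust prior (adjusted p = 0.054), no moderation (adjusted p = 0.225), the 0.01 threshold and both fits without arrays with raised HLA-DRA. Without cross-binding probe sets GSTA2 had no probe set left, and again 0 were lower. GSTA4, GSTO2 and GSTZ1 also have probe sets of that kind. Without them these 3 genes still passed limma's test, at log2 changes of 0.96, 0.35 and 0.37 (adjusted p = 0.000274, 0.042 and 0.0238). Of the other glutathione genes, 4 to 5 were higher and 3 to 5 lower with an array left out, against 5 and 6 as reported. Higher and lower were 3 and 3 at the 0.01 threshold, 2 and 2 with the fold minimum, 3 and 2 without urolithin A replicate 3 and control replicate 1, and 0 and 1 without all raised arrays. Those higher were 3 without cross-binding probe sets and 2 without moderation. Over all genes, 482 to 628 were higher and 581 to 681 lower with an array left out, against 885 and 969 as reported. They were 262 and 298 without moderation, 272 and 370 at the 0.01 threshold, 181 and 278 with the fold minimum, 320 and 385 without urolithin A replicate 3 and control replicate 1, and 15 and 33 without all raised arrays, and 574 were higher with the trended and robust prior. Because levels had been subtracted, the trend of that prior follows a mean that carries the treatment change, not abundance. Where no construction shows the cause, the cause was not tested.

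Whether the replicate numbers pair the samples could not be settled. Same-numbered arrays had correlations of their deviations from the group mean of 0.078, 0.023 and 0.196. Arrays with different numbers had correlations from -0.143 to 0.073. Urolithin A replicate 2 correlated better with control replicate 1 (0.049) than with control replicate 2. Deviations within groups of 3 arrays are too few to decide. With the replicate number as a block, 860 genes were higher and 1003 lower, and of the transferases again 3 were higher and 1 lower (8 and 1 of their probe sets). In limma's test with the block, the adjusted p of GSTA2 fell from 0.0397 to 0.00983. Those of GSTA4, GSTO2 and GSTZ1 rose to 0.00179, 0.0177 and 0.0252. Among the named genes, the block ended the call of DPEP3 (adjusted p = 0.0803), and with it 4 other glutathione genes were higher and 6 lower.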
